A study of Mus musculus with 11 samples.

Results

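Mouse stomachs given tamoxifen on top of rapamycin were compared with stomachs given rapamycin without tamoxifen. Tamoxifen at a high dose injures the gastric body within days: acid-secreting parietal cells are lost, and the remaining epithelium enters a proliferative, metaplastic state. Parietal cells pump protons into the gland lumen with an H+/K+ ATPase, and chief cells at the gland base make pepsinogen and other digestive enzymes. Rapamycin inhibits mTORC1, the kinase complex that promotes ribosome production, protein synthesis and entry into the cell cycle, so the comparison asks which transcriptional effects of tamoxifen were present when mTORC1 was inhibited.

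The combination group (2 arrays) was whole stomach of adult C57Bl/6 mice that received rapamycin at 0.6 mg per 20 g body weight for 10 days and tamoxifen at 5 mg per 20 g for 3 days. The rapamycin group (3 arrays) received rapamycin at the same dose for 10 days and no tamoxifen. Both groups therefore carried rapamycin, and all injections were daily and intraperitoneal. The samples were chosen by their labels: 5 of the 11 arrays of the series. Of the other whole-stomach arrays, 2 were from mice given tamoxifen alone at 5 mg per 20 g for 3 days and 2 from mice given the sunflower oil vehicle, and these 4 give a tamoxifen effect that shares no array with the main comparison. The last 2 arrays were 1 of isolated parietal cells and 1 of the stomach cells left after their removal. The labels call the arrays of a group biological replicates, without saying whether each is 1 mouse. How the tamoxifen course was timed within the rapamycin course is not stated. In these bulk samples, fewer cells of a type and less RNA per cell cannot be told apart.

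Values are log2 expression as the authors deposited it, for 22180 genes with 1 probe set each. Defining stomach genes were near the top of the scale in all 5 arrays: Gkn1, a surface mucous cell protein, lay between 13.55 and 13.61, and the proton pump subunit Atp4b at 12.28 or above. The 13 squamous genes of the forestomach set the arrays apart. Their mean level was 8.46 and 8.63 in the combination arrays, against 9.09, 7.96 and 5.19 in the rapamycin arrays, so rapamycin array 3 held far less of this signal, and the list's median log2 change of 1.17 was 0.03 without that array. Tamoxifen array 2 and vehicle array 2 also stood apart. They held exactly the same value for 7093 of 41345 probe sets (17.2%) and for 4221 of the 22180 genes, while no other pair of whole-stomach arrays shared more than 58 probe sets. The isolated parietal cell array and the array of the cells left behind shared values for 1918 probe sets (4.64%). The cause of these equal values was not tested. None of the 5 combination and rapamycin arrays is among them, but the spread in the test was estimated over all 9 whole-stomach arrays. The main results of tamoxifen alone are therefore also given within the arrays numbered 1, which leave both out. That is 1 array against 1, and the squamous mean was 9.18 in tamoxifen array 1 against 4.94 in vehicle array 1. In tamoxifen array 2 and vehicle array 2 it was 4.90 and 4.72. The part of forestomach tissue in the values of the arrays numbered 1 was not tested.

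Tamoxifen under rapamycin changed 543 genes, 2.45% of those tested (limma, Benjamini-Hochberg adjusted p under 0.05, which is what "called" means below). Expression was higher in the combination for 251 of them (1.13% of all genes) and lower for 292 (1.32%). The fall was the steeper side: 170 genes fell and 115 rose by more than 2-fold, and 30 fell and 11 rose by more than 4-fold. None of the 543 overlapped between groups, but 39.1% of all genes did not overlap either, so absence of overlap says little for groups of 2 and 3. The count depended on the arrays: it was 39 without combination array 1, 71 without combination array 2, and 262, 153 and 214 without rapamycin arrays 1, 2 and 3. With only the 5 arrays of this comparison, it was 1102 and included 538 of the 543.

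**Figure D1:**
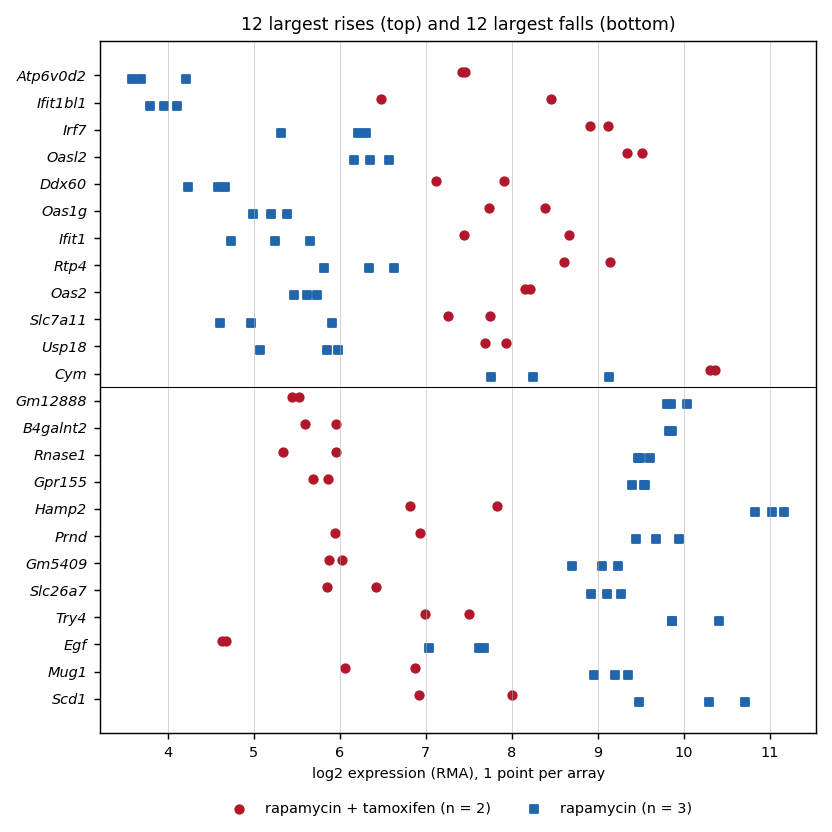
Log2 expression of the 12 genes with the largest rises and the 12 with the largest falls, 1 point per array, with the 2 combination arrays as circles and the 3 rapamycin arrays as squares. The groups do not overlap for any of the 24, and the widest gap is that of Gm12888, at 5.45 and 5.53 in the combination arrays and 9.80 to 10.04 in the rapamycin arrays.

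Of the 12 largest falls, 7 had a level in isolated parietal cells that exceeded the cells left behind by 2 log2 units or more (1 array each, no test). B4galnt2, a glycosyltransferase that adds N-acetylgalactosamine to glycans, had a log2 level of 5.59 and 5.95 in the combination arrays, against 9.84, 9.86 and 9.83 in the rapamycin arrays. Rnase1, a secreted ribonuclease, had 5.34 and 5.96 in the combination arrays, against 9.49, 9.60 and 9.47 in the rapamycin arrays. The rapamycin arrays were tight and high for both genes, with the combination arrays far below. The log2 change was -4.07 (SE 0.23, adjusted p = 0.000371, limma), a 16.8-fold fall, for B4galnt2, and -3.87 (SE 0.24, adjusted p = 0.000448, limma), a 14.6-fold fall, for Rnase1. In the fractionated cells B4galnt2 was 5.49 and Rnase1 6.30 log2 units higher in the parietal array. The predicted gene Gm12888 changed most of all, by -4.41 (SE 0.19, adjusted p = 7.37e-05, limma). It was below the median of both fraction arrays, which therefore say nothing of its cell type.

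Hamp2, a hepcidin-family peptide gene, fell to 6.81 and 7.83 in the combination, against 10.83, 11.03 and 11.16 in rapamycin. Egf, the epidermal growth factor gene, had 4.63 and 4.68 in the combination arrays, against 7.03, 7.62 and 7.68 in the rapamycin arrays. Both were well separated, with log2 changes of -3.69 (adjusted p = 0.0100) and -2.79 (adjusted p = 0.000689, limma). The other genes of the 12 largest falls were Gpr155 (-3.72), a membrane protein, Prnd (-3.25), a relative of the prion protein, Gm5409 (-3.05), Slc26a7 (-2.96), the trypsin gene Try4 (-2.80), the protease inhibitor Mug1 (-2.70) and the lipid desaturase Scd1 (-2.70). Averaging all probe sets of a gene moved Gpr155 to -1.29 and Prnd to -1.54, so the sizes for these genes depend on the probe set. Probe sets of gene families with near-identical members, such as Try4, Hamp2, Mug1, Oas1g and Ifit1bl1, may read more than 1 gene.

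Genes of acid secretion fell unevenly. Of the 6 proton pump and potassium channel genes, 3 fell and none rose, where 1.32% of all genes fell. Their median log2 change was -0.83, where the median of all genes was -0.01. Kcnj16, a potassium channel of parietal cells, changed most: it had 8.27 and 8.44 in the combination arrays, against 10.79, 11.05 and 10.69 in the rapamycin arrays (log2 change -2.49, SE 0.16, adjusted p = 0.000474, limma). Kcnq1, the channel that returns potassium to the lumen, changed by -0.77 and Atp4b, the beta subunit of the proton pump, by -0.99. Its catalytic subunit Atp4a had 12.19 and 12.53 in the combination arrays, against 13.25, 13.32 and 13.21 in the rapamycin arrays, a change of -0.89 that missed the threshold (adjusted p = 0.0516, limma). All 6 genes lay lower in both combination arrays than in any rapamycin array, where 20.4% of all genes did.

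Among the chloride and bicarbonate carriers of parietal cells, 3 of 8 genes fell, where 1.32% of all genes did. Slc26a7, a basolateral anion exchanger, had 5.86 and 6.42 in the combination arrays, against 8.92, 9.26 and 9.11 in the rapamycin arrays (log2 change -2.96, SE 0.20, adjusted p = 0.000689, limma). Slc26a9, an apical chloride channel, changed by -1.44 and Slc4a2, the chloride/bicarbonate exchanger AE2, by -1.31. The ion transport list had a median of -1.22. The pump subunits lie near the top of the arrays' range, so the sizes of change are not set against each other. The water channel Aqp4 (-2.15, adjusted p = 0.0750) and the chloride channel protein Clic6 (-1.13, adjusted p = 0.0877, limma) were not called. The remaining members were close to 0: Slc9a4 -0.03, Car2 0.13 and Slc12a2 0.11.

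Among 8 receptors and regulators of acid secretion, 3 fell, where 1.32% of all genes did, and none rose, with a median of -0.85. The histamine receptor Hrh2 had 6.27 and 6.44 in the combination arrays, against 7.62, 8.28 and 7.71 in the rapamycin arrays (log2 change -1.52, adjusted p = 0.0183, limma). Trim50, a ubiquitin ligase of parietal cell canaliculi, changed by -1.12 and the somatostatin receptor Sstr2 by -1.07. The gastrin receptor Cckbr (-0.68), the muscarinic receptor Chrm3 (-0.36) and the membrane linker Ezr (-0.18) were not called. Without combination array 1, 1 gene of the pump list, 1 of the ion transport list and 0 of the receptor list were called, against 3 in each with all arrays, and without combination array 2 the counts were the same.

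Lipid uptake genes fell alongside. Lpl, which releases fatty acids from circulating lipoproteins, had 7.54 and 7.22 in the combination arrays, against 9.86, 10.08 and 10.14 in the rapamycin arrays (log2 change -2.65, SE 0.21, adjusted p = 0.00138, limma). The apolipoprotein genes Apoa4 (-2.57) and Apoa1 (-2.39) and the fatty acid transporter Cd36 (-1.68) fell too. With Scd1, these made 5 of 12 genes of the list, where 1.32% of all genes fell. None of the 12 was called higher, and the median was -0.79. Lpl, Apoa4, Apoa1 and Cd36 were 4.88 to 6.59 log2 units higher in the isolated parietal cells. Scd1 was below the median of both fraction arrays, so its place is not read from them.

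**Figure D2:**
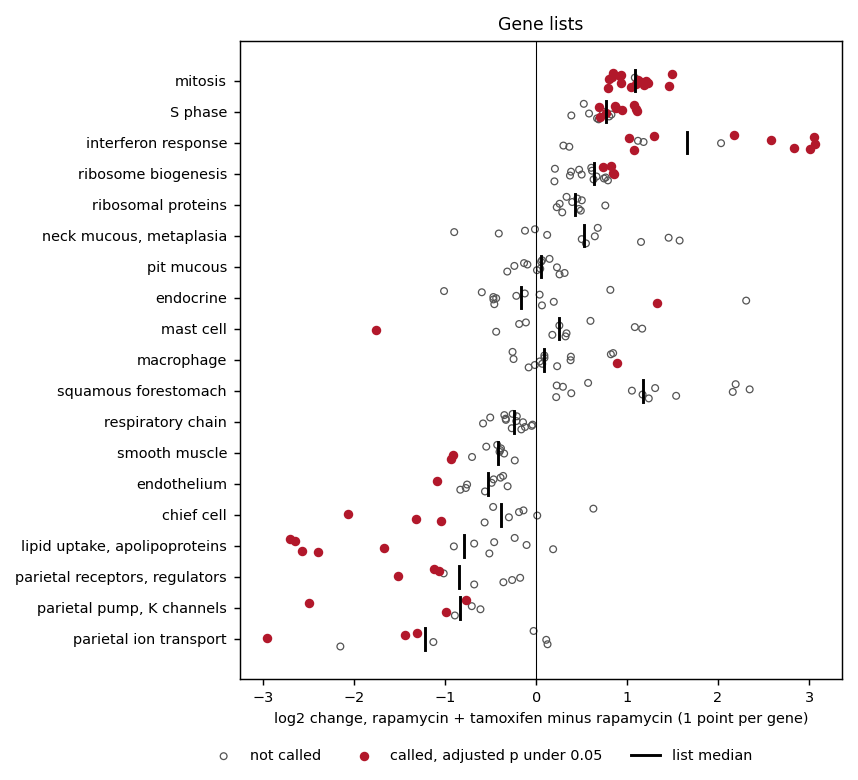
Log2 change in the combination relative to rapamycin for each measured gene of 19 lists, 1 point per gene, with filled points for called genes and a bar at the list median. Mitosis, S phase, interferon and ribosome lists lie right of 0 throughout, and the 3 parietal cell lists and the lipid list lie mostly left of 0.

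In the cell fractions, the genes that fell had a median difference of 1.51 log2 units in favour of parietal cells, and those that rose one of -0.62. Of the 292 genes that fell, 123 (42.1%) were at least 2 log2 units higher in isolated parietal cells, where 1.3% of all genes were. No gene that rose was so placed. Of the 289 parietal-fraction genes, 123 were called lower and none higher, with a median change of -0.69. Of the 455 genes at least 2 log2 units lower in the parietal fraction, 40 were called higher and 7 lower, with a median of 0.23. The fraction values come from 1 array each and describe where a gene was found, without a test.

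**Figure D3:**
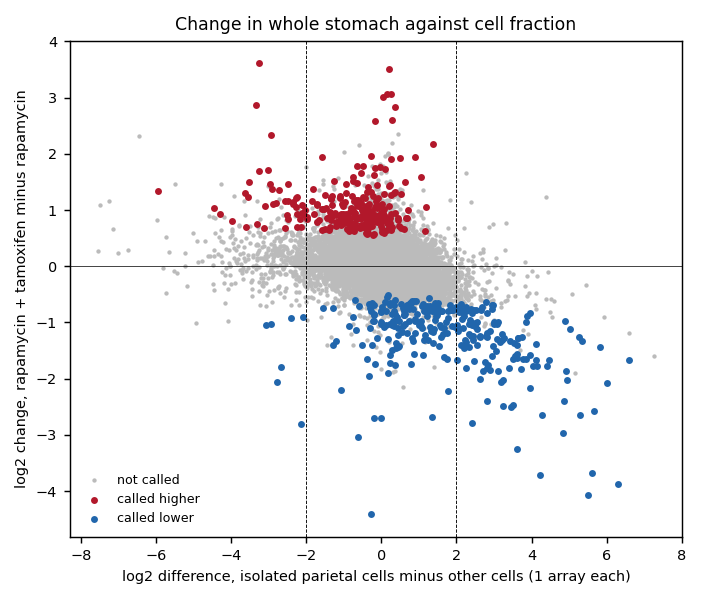
Log2 change in the combination relative to rapamycin (vertical axis) against the log2 difference between isolated parietal cells and the other stomach cells (horizontal axis), 1 point per gene. Dashed lines mark a difference of 2 log2 units either way: 123 genes called lower and 0 called higher lie to the right of the right-hand line.

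Chief cell genes fell in part. Pga5, a pepsinogen, had 7.47 and 6.76 in the combination arrays, against 9.29, 8.96 and 9.30 in the rapamycin arrays, and Chia1, a chitinase, had 11.64 and 11.18 against 12.64, 12.63 and 12.93. Cblif, which encodes gastric intrinsic factor, had 11.76 and 11.62 in the combination arrays, against 12.65, 12.80 and 12.74 in the rapamycin arrays. The groups were apart for all 3, with log2 changes of -2.07 (adjusted p = 0.0182), -1.32 (adjusted p = 0.00708) and -1.04 (adjusted p = 0.00437, limma). They were the called genes among 10, where 1.32% of all genes were called lower. None of the 10 was called higher, 2 had a positive change (up to 0.63), and the median was -0.39. Pgc, another pepsinogen, had 13.77 and 13.75 in the combination arrays, against 13.97, 13.92 and 13.95 in the rapamycin arrays. It was not called (-0.19), but the rapamycin values lie at the top of the arrays' range, where a change may be compressed. Bhlha15, the transcription factor MIST1 of secretory cells, was not called either (-0.57, adjusted p = 0.190, limma).

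Markers of mucous neck cells and of metaplasia were not called in any of 12 cases, with a median of 0.52. Dmbt1, a secreted mucosal scavenger protein, had 9.61 and 9.28 in the combination arrays, against 8.33, 7.77 and 7.85 in the rapamycin arrays (log2 change 1.46, adjusted p = 0.0817, limma). Clu, a secreted chaperone and injury marker, changed by 0.50 (adjusted p = 0.0884, limma), and the neck mucin Muc6 by -0.41. Cd44, an adhesion receptor used as a metaplasia marker, had 8.71 and 8.75 in the combination arrays, against 8.71, 7.66 and 6.37 in the rapamycin arrays, and was lowest in the same array that was low in forestomach genes. The part of forestomach tissue in that value was not tested. None of the 12 surface mucous (pit) cell genes was called, and their changes spanned -0.32 to 0.31.

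In the endocrine list 1 of 14 genes rose, where 1.13% of all genes did, and none fell. Chgb, a granule protein of endocrine cells, had 9.19 and 8.97 in the combination arrays, against 7.73, 7.87 and 7.64 in the rapamycin arrays (log2 change 1.33, SE 0.20, adjusted p = 0.0104, limma). Gast, the gene of the hormone gastrin, had 9.73 and 9.08 in the combination arrays, against 8.30, 6.28 and 6.71 in the rapamycin arrays, a change of 2.31 that just missed the threshold (adjusted p = 0.0528, limma). Somatostatin (Sst, -1.01) and ghrelin (Ghrl, -0.47) had negative changes and were not called.

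Mitosis genes rose nearly without exception: 16 of 17 were called higher, against 1.13% of all genes, and all 17 lay above every rapamycin array, where 18.7% of all genes did. The median log2 change was 1.08. Top2a, the topoisomerase that untangles replicated DNA, had 8.48 and 8.25 in the combination arrays, against 7.05, 6.73 and 6.84 in the rapamycin arrays (log2 change 1.49, SE 0.18, adjusted p = 0.00473, limma). Birc5 (survivin), part of the chromosomal passenger complex, had 6.41 and 6.33 in the combination arrays, against 4.92, 4.97 and 4.83 in the rapamycin arrays (log2 change 1.46, SE 0.13, adjusted p = 0.00153, limma). The mitotic cyclin Ccnb2 (1.23) and the kinetochore motor Cenpe (1.21) rose by similar amounts. The 1 uncalled gene was Mki67 (1.08, adjusted p = 0.0712, limma), the Ki-67 proliferation antigen. The number called was 2 without either combination array, and 10, 7 and 7 without rapamycin arrays 1, 2 and 3.

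S phase genes rose with them, by less: 9 of 17 were called higher, against 1.13% of all genes, and none lower. All 17 lay above every rapamycin array, where 18.7% of all genes did, with a median of 0.77. Mcm4, a subunit of the replicative helicase, had 8.50 and 8.26 in the combination arrays, against 7.28, 7.37 and 7.18 in the rapamycin arrays (log2 change 1.10, SE 0.13, adjusted p = 0.00490, limma). Its partners Mcm6 and Mcm5 changed by 1.10 and 0.94, and Rrm2, the ribonucleotide reductase subunit that supplies deoxynucleotides, by 1.07. Called S phase genes numbered 0 without combination array 1 and 1 without combination array 2.

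Several mitosis genes carry the cell cycle homology region (CHR), a short promoter element through which the DREAM and MuvB complexes time expression to G2 and mitosis. The letters TTTGAA, on either strand within 250 bases before the annotated start, were found for 7 of the 13 mitosis genes that had a promoter sequence, and for 16.1% of 16990 genes with one. The windows of Cdk1, the mitotic kinase (chr10:69352913-69353162, minus strand), and Cdc20, an activator of the anaphase-promoting complex (chr4:118437344-118437593, minus strand), are shown because their matches lie nearest the start among the genes described, with TTTGAA or its reverse complement in capitals (RefSeq, GRCm38.p6).
Cdk1: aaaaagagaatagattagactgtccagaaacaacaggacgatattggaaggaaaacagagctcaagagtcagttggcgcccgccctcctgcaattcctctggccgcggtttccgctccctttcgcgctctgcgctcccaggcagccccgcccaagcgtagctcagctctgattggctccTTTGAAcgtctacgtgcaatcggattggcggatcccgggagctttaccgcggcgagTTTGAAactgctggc
Cdc20: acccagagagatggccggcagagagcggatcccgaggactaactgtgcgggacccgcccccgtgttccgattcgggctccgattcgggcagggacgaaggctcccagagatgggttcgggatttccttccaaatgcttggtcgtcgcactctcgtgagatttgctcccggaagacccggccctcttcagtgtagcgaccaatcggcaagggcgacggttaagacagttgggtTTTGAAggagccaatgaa
The Cdk1 window holds matches starting at positions -71 and -15 relative to the annotated start, and that of Cdc20 1 match at -18. A match of letters is a description and not a measured binding site. In the arrays Cdk1 had 7.86 and 8.12 in the combination, against 6.76, 6.88 and 6.86 in rapamycin, and Cdc20 had 8.12 and 8.01 against 7.23, 6.99 and 7.18. Both genes rose, by 1.16 (adjusted p = 0.00434) and 0.94 (adjusted p = 0.0209, limma).

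Few genes of ribosome production were called, all of them higher. Of 17 ribosome biogenesis genes, 4 were called higher, against 1.13% of all genes, and none lower. All 17 lay above every rapamycin array, where 18.7% of all genes did, and the median was 0.63. Nop58, a core protein of small nucleolar ribonucleoproteins, had 9.55 and 9.43 in the combination arrays, against 8.67, 8.57 and 8.67 in the rapamycin arrays (log2 change 0.86, adjusted p = 0.0276, limma). Npm1 (nucleophosmin) changed by 0.85, and Wdr43 and Wdr12, which act in processing of ribosomal RNA, by 0.83 and 0.74. None of the 4 was called when any 1 combination or rapamycin array was left out. The 10 ribosomal protein genes were all above the rapamycin arrays too, with a median of 0.42 and none called. None of the 16 genes of the mTORC1 pathway itself was called, and Ifrd1, a stress-induced regulator that acts on mTORC1 in regenerating cells, changed by 0.49 (adjusted p = 0.191, limma).

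Interferon-stimulated genes made up most of the largest rises. Of 14 in the list, 9 rose, where 1.13% of all genes did, and none fell, with a median of 1.66. Irf7, the transcription factor that amplifies the type I interferon response, had 9.12 and 8.90 in the combination arrays, against 6.22, 6.31 and 5.31 in the rapamycin arrays (log2 change 3.07, SE 0.30, adjusted p = 0.00323, limma). Oasl2, an oligoadenylate synthetase-like antiviral protein, had 9.34 and 9.52 in the combination arrays, against 6.57, 6.35 and 6.17 in the rapamycin arrays (log2 change 3.06, SE 0.26, adjusted p = 0.00147, limma). Ddx60, an antiviral helicase, had 7.12 and 7.90 in the combination arrays, against 4.67, 4.58 and 4.23 in the rapamycin arrays (log2 change 3.01, SE 0.28, adjusted p = 0.00230, limma). These 3 were each over 8-fold higher in the combination, with wide gaps between the groups.

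Ifit1, which binds foreign RNA (2.84), Oas2, an oligoadenylate synthetase (2.58), Usp18, which removes ISG15 from proteins (2.18), Rsad2 (viperin, 1.29), the RNA sensor Ddx58 (1.07) and Oasl1 (1.02) also rose. Outside the list, Ifit1bl1 (3.51), Oas1g (2.87) and Rtp4 (2.60), all interferon-induced, were among the 12 largest rises. Isg15, the ubiquitin-like modifier, had 6.61 and 7.13 in the combination arrays, against 5.29, 4.46 and 4.78 in the rapamycin arrays, and was not called (2.03, adjusted p = 0.105, limma). Mx1 (1.18), Mx2 (1.12), Ifit2 (0.36) and Ifit3 (0.30) were not called. The number called was 2 without combination array 1 and 3 without combination array 2, and Oasl2 and Ddx60 were called whichever of the 9 arrays was left out.

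The interferon-stimulated response element (ISRE) is the promoter sequence bound by the STAT and IRF factors that interferon activates. The letters GAAA, any pair of bases and again GAAA were searched on either strand within 250 bases before the annotated start. They were found for 5 of the 10 list genes with a promoter sequence and for 3.4% of 16990 genes. The matched genes were Ifit1, Rsad2, Ddx60, Isg15 and Ifit3, of which Isg15 and Ifit3 were not called. The windows of the called genes Irf7, Oasl2, Ddx58 and Oasl1 held no match. The windows of Ifit1 (chr19:34640639-34640888, plus strand) and Rsad2 (chr12:26456453-26456702, minus strand) are shown as called genes with a match, with the motif, here as its reverse complement, in capitals (RefSeq, GRCm38.p6).
Ifit1: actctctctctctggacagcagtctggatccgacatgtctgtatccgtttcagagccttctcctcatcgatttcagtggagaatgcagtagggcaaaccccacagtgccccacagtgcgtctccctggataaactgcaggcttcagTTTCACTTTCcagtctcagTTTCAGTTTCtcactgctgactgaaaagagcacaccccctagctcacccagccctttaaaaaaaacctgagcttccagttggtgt
Rsad2: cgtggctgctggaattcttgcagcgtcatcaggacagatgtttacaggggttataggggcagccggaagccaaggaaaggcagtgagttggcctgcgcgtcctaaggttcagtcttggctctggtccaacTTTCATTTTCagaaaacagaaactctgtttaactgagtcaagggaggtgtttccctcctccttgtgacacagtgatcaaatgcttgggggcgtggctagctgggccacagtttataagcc
The Ifit1 window holds matches starting at positions -104 and -85 relative to the annotated start, and that of Rsad2 1 match at -120. Ifit1 had 7.44 and 8.66 in the combination arrays, against 5.66, 4.74 and 5.25 in the rapamycin arrays, and Rsad2 had 6.53 and 7.17 against 5.74, 5.42 and 5.51. Both were above every rapamycin array, with adjusted p = 0.0293 for Ifit1 and 0.0210 for Rsad2 (limma).

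Few markers of immune cells were called, where 2.45% of all genes were called in either direction. Among 14 macrophage genes 1 rose, Cd14 (0.89, adjusted p = 0.0327, limma), the co-receptor for bacterial lipopolysaccharide, and the list mean was 6.64 and 6.83 in the combination arrays, against 6.54, 6.54 and 6.41 in the rapamycin arrays. None of 9 neutrophil, 9 T cell and cytotoxic, 7 B and plasma cell, 7 class II antigen presentation or 12 inflammatory cytokine genes was called. Of 11 mast cell genes, 1 was called: Kit, the stem cell factor receptor, had 7.28 and 7.06 in the combination arrays, against 8.76, 9.10 and 8.91 in the rapamycin arrays (log2 change -1.76, SE 0.18, adjusted p = 0.00353, limma). Kit also marks the pacemaker cells of the gut wall, and the other 4 genes of that list were not called.

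Single genes of other pathways were called, where 2.45% of all genes were called in either direction. A single call says little of its list as a whole. Slc7a11, the cystine importer that feeds glutathione synthesis, had 7.75 and 7.26 in the combination arrays, against 5.91, 4.61 and 4.97 in the rapamycin arrays (log2 change 2.34, adjusted p = 0.0263, limma). It was the 1 called gene of 8 targets of the antioxidant factor NRF2, all of which had a positive change (median 0.41). Gper1, a membrane oestrogen receptor for which tamoxifen is a known ligand, had 5.52 and 5.65 in the combination arrays, against 7.28, 7.53 and 7.62 in the rapamycin arrays (log2 change -1.89, SE 0.16, adjusted p = 0.00153, limma). The nuclear receptors Esr1 (-0.14) and Esr2 (-0.05) were not called. Reg3g, a bactericidal lectin, had 5.13 and 5.20 in the combination arrays, against 3.12, 3.03 and 3.64 in the rapamycin arrays (log2 change 1.91, adjusted p = 0.0181, limma). Gabarapl1, an autophagosome protein, changed by -1.26 and was the 1 called gene of 13 for autophagy. The mitochondrial chaperone Hspd1 (0.71) was the 1 called gene of 10 for heat shock, and Acadm (-0.79), which oxidises medium-chain fatty acids, that of 15 for the citric acid cycle and fatty acid oxidation. Hamp2 was the 1 called gene of 8 for iron handling, Egf that of 9 for the EGF family, Reg3g that of 11 for intestine and the protease inhibitor Timp1 (0.63) that of 12 for fibroblasts and matrix. Of 10 exocrine pancreas genes, Try4 and the lipase gene Cel (-1.96) fell.

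Lists that held no called gene still leaned one way in a few cases. All 14 respiratory chain genes had a negative change, with a median of -0.24. Of 13 endoplasmic reticulum folding genes, 12 were negative, with a median of -0.22. Hedgehog (8 genes), tuft cell (7), keratin and claudin (12), immediate early (13), stem cell and Wnt (11), p53 (10), sterol synthesis (12), glycolysis (11), amino acid supply (14), clock (11) and xenobiotic metabolism (12) lists held no called gene. Myc, a driver of growth and proliferation, had 9.98 and 9.93 in the combination arrays, against 8.92, 9.12 and 8.95 in the rapamycin arrays (0.96, adjusted p = 0.0503, limma).

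The muscle layer and vessels gave lower values under tamoxifen with rapamycin. All 10 smooth muscle genes lay below every rapamycin array, as 20.4% of all genes did, with a median of -0.42. Of the 10, 2 were called lower, where 1.32% of all genes were. Actg2, the enteric smooth muscle actin, had 10.31 and 10.23 in the combination arrays, against 11.25, 11.18 and 11.18 in the rapamycin arrays (log2 change -0.93, SE 0.13, adjusted p = 0.00931, limma), and the muscle filament Des (desmin) changed by -0.91. The list's mean was 9.67 and 9.51 in the combination arrays, against 10.17, 10.13 and 10.07 in the rapamycin arrays. All 10 endothelial genes were below every rapamycin array as well, against the same 20.4% of all genes, at a median of -0.53, with Plvap, a protein of vessel fenestrae, called (-1.09, adjusted p = 0.0368, limma). Muscle and vessel values were lower in the same arrays in which the epithelial lists above changed. The part of these tissues in those results was not tested.

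Beside the same drug without rapamycin, the direction was mostly alike. Tamoxifen alone against vehicle changed 381 genes (1.72%), 207 higher (0.933%) and 174 lower (0.784%). With only its own 4 arrays none was called (limma, 1318 at an unadjusted p under 0.05), so the overlaps below depend on the shared spread. Without tamoxifen array 2 and vehicle array 2, 1 array is left in each of these groups. The spread then comes only from the combination and rapamycin arrays, so no count is given. Of the 251 genes that rose in the combination relative to rapamycin, 246 (98%) had a positive change in tamoxifen relative to vehicle, where 46.4% of all genes did. Of the 292 that fell, 282 (96.6%) had a negative one, where 53.6% of all genes did. Called in the same direction in both were 118 rising genes (47% of the one list and 57% of the other) and 135 falling genes (46.2% and 77.6%), and none was called in opposite directions. Tamoxifen array 1 minus vehicle array 1 had the same sign for 244 of the 251 and 287 of the 292, and tamoxifen array 2 minus vehicle array 2, the arrays that share values, for 241 and 273. Across all 22180 genes, which are not independent replicates, Pearson's r of the 2 changes was 0.663 and Spearman's rho 0.486.

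The mitosis list had a median of 1.08 with rapamycin and 1.01 without (0.93 in the arrays numbered 1), and the S phase list 0.77 with and 0.92 without (0.85). Among parietal cell lists, the pump list had -0.83 with rapamycin and -0.68 without (-0.83 in the arrays numbered 1), the ion transport list -1.22 and -0.77 (-0.98), and the receptor list -0.85 and -0.84 (-1.01). The lipid list differed more in its median, at -0.79 with and -0.08 without (-0.04). Of its 12 genes, 3 were still called lower without rapamycin and 0 higher, where 0.784% of all genes were called lower. In the arrays numbered 1, Lpl changed by -2.90, Apoa4 by -3.07 and Apoa1 by -2.28, while Scd1 changed by 0.91. For Top2a the difference between the effects was 0.20 (95% interval -0.39 to 0.80), and for Slc26a7 it was -0.21 (interval -0.89 to 0.47). Without rapamycin and in the arrays numbered 1 alone, Top2a changed by 1.21 and Slc26a7 by -3.04. Mean mitosis levels were lowest in the rapamycin arrays and highest with tamoxifen alone: 7.93 and 7.82 in the combination arrays, 6.87, 6.80 and 6.75 in the rapamycin arrays, 8.34 and 8.48 in the tamoxifen arrays and 7.41 and 7.39 in the vehicle arrays.

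**Figure D4:**
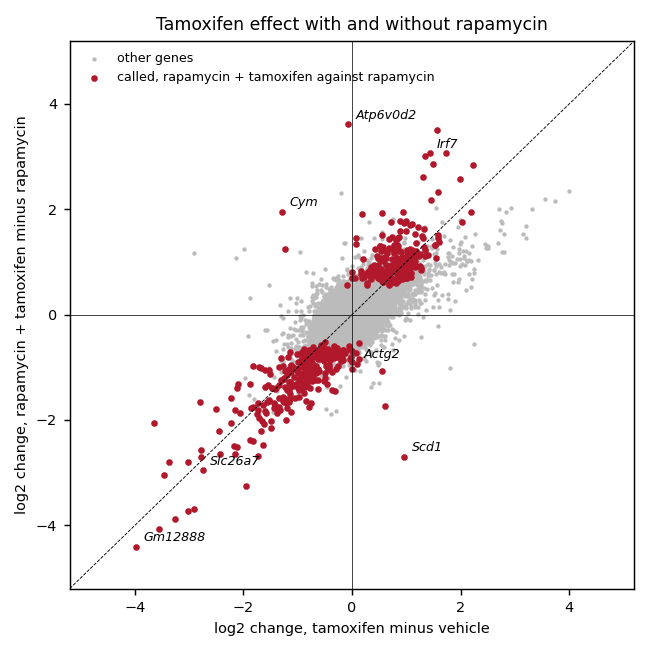
Log2 change in the combination relative to rapamycin (vertical axis) against the log2 change in tamoxifen relative to vehicle (horizontal axis), 1 point per gene, with genes called in the combination against rapamycin in colour and a dashed line of equal change. Most called genes follow the line, while Atp6v0d2, Scd1 and Cym lie away from it.

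No gene was called for the difference between the 2 tamoxifen effects after adjustment (limma, 0 of 22180). At an unadjusted p under 0.05 there were 627, or 2.83%. The genes and lists that follow are given as descriptions, and not all are among those of smallest p. St3gal4, 1 of the 6 genes of smallest p, was not called in the combination against rapamycin. Without rapamycin, St3gal4 changed by -1.59 in the arrays numbered 1 and -2.16 in those numbered 2. Atp6v0d2, the d2 subunit of the vacuolar proton pump that acidifies lysosomes, was the largest rise of all: 7.46 and 7.42 in the combination arrays, against 4.21, 3.70 and 3.59 in the rapamycin arrays (log2 change 3.61, SE 0.30, adjusted p = 0.00147, limma), a 12.2-fold rise. Without rapamycin it had 8.71 and 8.08 in the tamoxifen arrays and 8.0 and 8.92 in the vehicle arrays, a change of -0.07 for Atp6v0d2, made up of 0.71 in the arrays numbered 1 and -0.85 in those numbered 2. Only the rapamycin arrays were low, and the difference between the effects was 3.68 (interval 2.66 to 4.70, unadjusted p = 2.01e-05, adjusted p = 0.223, limma). Of the other 11 lysosome genes, only Ctss, a protease of antigen-presenting cells, was called (1.23).

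Scd1, which makes monounsaturated fatty acids, ran the opposite way. It had 8.0 and 6.92 in the combination arrays, against 10.71, 10.30 and 9.48 in the rapamycin arrays (log2 change -2.70, adjusted p = 0.0199, limma), while it had 8.06 and 7.28 in the tamoxifen arrays and 7.16 and 6.26 in the vehicle arrays. Here the rapamycin arrays alone were high. The difference between the effects was -3.66 (interval -5.19 to -2.13, unadjusted p = 0.000441, limma), and the change without rapamycin was 0.91 in the arrays numbered 1 and 1.02 in those numbered 2. Adipocyte genes were also highest with rapamycin: the mean of 6 was 6.98 and 6.19 in the combination arrays, 7.43, 7.51 and 6.77 in the rapamycin arrays, 6.53 and 5.72 in the tamoxifen arrays and 6.00 and 5.82 in the vehicle arrays. The part of fat tissue in the Scd1 value was not tested.

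**Figure D5:**
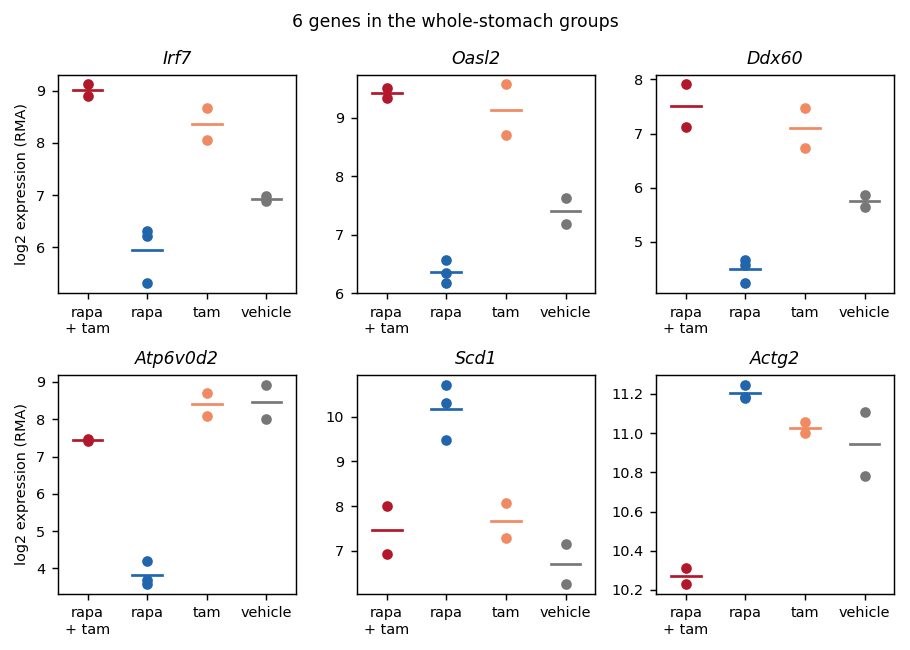
Log2 expression of 6 genes in the combination (rapa + tam), rapamycin (rapa), tamoxifen (tam) and vehicle arrays, 1 point per array with a line at the group mean, each panel on its own axis. Irf7, Oasl2, Ddx60 and Atp6v0d2 are lowest in the 3 rapamycin arrays, Scd1 is highest there, and Actg2 is lowest in the 2 combination arrays.

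Of the 14 interferon genes, 3 had an unadjusted p under 0.05 for the difference between the effects (limma), where 2.83% of all genes did. None of the 14 was called. The list's median was 1.66 with rapamycin and 1.26 without (0.87 in the arrays numbered 1). Irf7 had 8.05 and 8.67 in the tamoxifen arrays and 6.88 and 6.99 in the vehicle arrays, a change of 3.07 with rapamycin and 1.43 without (1.17 in the arrays numbered 1 and 1.68 in those numbered 2). Both combination arrays lay above both tamoxifen arrays for this gene, and the 3 rapamycin arrays lay below the vehicle arrays. The differences between the effects were 1.64 for Irf7 (unadjusted p = 0.00517), 1.33 for Oasl2 (unadjusted p = 0.00687) and 1.67 for Ddx60 (unadjusted p = 0.00326, limma), and none passed adjustment. In the arrays numbered 1 the change without rapamycin was 1.08 for Oasl2 and 1.09 for Ddx60. The differences for Ifit1 (0.61) and Oas2 (0.59) had unadjusted p = 0.456 and 0.249 (limma).

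The smooth muscle list had a median of -0.42 with rapamycin and 0.09 without (0.10 in the arrays numbered 1), and for Actg2 the difference was -1.01 (interval -1.46 to -0.57, unadjusted p = 0.000637, limma). Without rapamycin, Actg2 changed by -0.05 in the arrays numbered 1 and 0.22 in those numbered 2. Chief cell products had smaller changes with rapamycin than without. Pga5 changed by -2.07 with rapamycin and -3.64 without, Chia1 by -1.32 and -2.10, and Cblif by -1.04 and -1.60. In the arrays numbered 1 the changes without rapamycin were -3.69, -2.25 and -1.65. The unadjusted p-values of these 3 differences were 0.0128, 0.0151 and 0.0127, and none was called after adjustment (limma). Mast cell proteases behaved apart from Kit: Mcpt1 had 6.60 and 6.53 in the combination arrays, against 5.71, 4.58 and 5.91 in the rapamycin arrays. Without rapamycin, Mcpt1 had 6.64 and 7.25 in the tamoxifen arrays, against 9.49 and 10.23 in the vehicle arrays. Vehicle was the high group for Mcpt1. For the difference, 7 of the 11 mast cell genes had an unadjusted p under 0.05 (limma), where 2.83% of all genes did. None of the 11 was called after adjustment.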

How the data were processed

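Total RNA of whole stomach was amplified (RiboAmp HS), biotin-labelled (Enzo kit) and hybridised to Affymetrix arrays, per the labels' protocols. The values are log2 expression deposited by the authors, made with RMA in Partek per the submitters' processing notes (software versions not given in the sources used here). All 9 whole-stomach arrays were analysed; the 2 cell fraction arrays, whose medians (3.67 and 3.68) lay below those of whole stomach (4.95 to 5.09), were used for description only.

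Of 41345 probe sets, 23521 had 1 gene symbol, 1814 had several and 16010 were not listed with a gene; the brightest probe set of each symbol was kept (22180 genes). Limma 3.58.1 (R 4.3.3) fitted 1 mean per group over the 9 arrays, with contrasts combination minus rapamycin, tamoxifen minus vehicle and their difference, and Benjamini-Hochberg adjustment over all genes at 0.05. P-values measure the spread between these arrays. The fit was tested on simulated data. Array number limits the precision.

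Named genes were the 12 largest called rises and falls and up to 4 called members of each list. Where none was called, the 2 members of smallest p were taken. The 6 genes of smallest p for the difference were added. Other list members are given beside them for some lists, and not every member of a list is given. Members and lists were chosen with earlier results of these data known. Of 602 list entries, 552 were measured, and the 7 blood genes were not analysed here. Replicate numbers were checked for pairing: deviations of combination and rapamycin arrays of the same number correlated at -0.0365 and 0.0447, so the samples were treated as unpaired. For tamoxifen and vehicle, whose arrays 2 share values, it was 0.5605, and for tamoxifen 1 and rapamycin 1 it was 0.4077. For tamoxifen 2 and rapamycin 2 it was -0.0875, while tamoxifen 2 and rapamycin 3, of unlike number, correlated at 0.4268. The replicate block is among the alternatives. Alternatives covered normalization, filters, probe set choice, the variance model, a forestomach covariate, the replicate block, each array left out, and, added after the data were seen, tamoxifen array 2 and vehicle array 2.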

Additional observations from a re-analysis of the deposited data

Results flagged for a closer look

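For 7 named genes the groups were separated in opposite ways by tamoxifen with and without rapamycin. None of these differences passed adjustment (limma). Mcpt1, Pla2g4c, Tpsb2 and Tubb6 were named for a small p of this same difference, so their opposite separation partly follows from that choice. In the combination against rapamycin 39.1% of all genes did not overlap, and the share of all genes separated in opposite ways was not counted. Mcpt1, a mast cell protease, had the widest difference between the effects, 4.08 on the log2 scale (unadjusted p = 6.65e-05), and Tpsb2, a mast cell tryptase, had 1.33 (unadjusted p = 0.000134). The difference for Scd1 was -3.66 (unadjusted p = 0.000441). Cym, the milk-clotting protease chymosin, had 10.37 and 10.30 in the combination arrays, against 9.13, 7.76 and 8.24 in the rapamycin arrays. Without rapamycin, Cym had 8.61 and 9.08 in the tamoxifen arrays, against 10.66 and 9.60 in the vehicle arrays, a difference of 3.24 (unadjusted p = 0.000479). Pla2g4c, a phospholipase, had 7.78 and 7.07 in the combination arrays, against 6.16, 6.26 and 6.11 in the rapamycin arrays. Without rapamycin, Pla2g4c had 8.29 and 8.49 in the tamoxifen arrays, against 9.26 and 10.01 in the vehicle arrays, a difference of 2.49 (unadjusted p = 0.000107). Tubb6, a tubulin, had a difference of -1.36 (unadjusted p = 0.000397). Cdkn1a, the cell cycle inhibitor p21, had 11.16 and 11.18 in the combination arrays, against 11.65, 11.48 and 11.50 in the rapamycin arrays. Without rapamycin, Cdkn1a had 11.19 and 11.29 in the tamoxifen arrays, against 11.13 and 10.95 in the vehicle arrays, a difference of -0.57 (unadjusted p = 0.0134). Because tamoxifen array 2 and vehicle array 2 share many values, the change without rapamycin was also taken in the arrays numbered 1 alone: it was -2.85 for Mcpt1, -0.70 for Tpsb2, 0.91 for Scd1, -2.06 for Cym, -0.97 for Pla2g4c, 0.77 for Tubb6 and 0.06 for Cdkn1a.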

How the results depend on the processing

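The count for the combination against rapamycin (543) stayed within 1.5 times under repeated quantile normalization (625), median centring (420), averaged probe sets (538), the trend and robust variance model (710) and the forestomach covariate (438). It was 865 among brighter genes, 1102 with only its own 5 arrays, 342 with every probe set by itself, 1102 without and 1480 with a separate term for tamoxifen array 2 and vehicle array 2 (an alternative chosen after seeing the data), and 39 to 643 with 1 array left out. The replicate block gave 260; number 3 occurs only in rapamycin, so the block sets that array aside. For tamoxifen against vehicle (381) the count was 711 among brighter genes, 0 with only its own 4 arrays (limma, 1318 at an unadjusted p under 0.05), 129 with every probe set, 154 with the covariate, 105 (20 higher, 85 lower) without the 2 arrays that share values, 1040 with a separate term for them, and 95 to 213 with 1 array left out; the replicate block gave 170. For the difference between the effects (0) the replicate block gave 1 and the other alternatives 0. No named gene reversed its direction in these alternatives: 1885 values kept their side of the threshold, 221 lost the call and 89 gained it. With the covariate, Cym, Atp4b, Sstr2, Wdr12, Timp1, Plvap and Pla2g4c lost their calls, with log2 changes close to those without it (Cym 1.93, Atp4b -0.90, Plvap -1.09). The number of arrays, 2 against 3, limits the precision.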

Other observations

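Enzymes that break down branched-chain amino acids fell in the combination relative to rapamycin. The list was written after values had been seen and is a description. Of 24 measured genes, 14 fell and none rose, where 1.32% of all genes fell and 1.13% rose. The median log2 change was -0.79. Of the 24, 23 were higher in the isolated parietal cells. Their median difference was 2.07 log2 units, where the median of all genes was 0.03. Oxct1, which activates ketone bodies, had 9.20 and 9.33 in the combination arrays, against 10.93, 11.13 and 11.03 in the rapamycin arrays (-1.77). Acadsb, an acyl-CoA dehydrogenase of the isoleucine pathway, changed by -1.87, the carboxylase subunit Mccc1 by -1.65 and Bckdhb, a subunit of the branched-chain ketoacid dehydrogenase, by -1.42. Bcat1, the cytosolic transaminase, was the 1 gene with a positive change (0.19, not called).

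Host genes of small nucleolar RNAs are a list also written after values had been seen. They rose in 6 of 15 cases and fell in 1, where 1.13% of all genes rose and 1.32% fell. Zfas1 had 7.99 and 8.06 in the combination arrays, against 6.55, 6.61 and 6.57 in the rapamycin arrays (1.45), and Snhg1 had 8.04 and 8.07 in the combination arrays, against 7.10, 7.13 and 7.15 in the rapamycin arrays (0.92). Snhg18 fell by 1.08 on the log2 scale. Among 11 pancreatic-type secreted proteins, chosen in the same way, 6 fell and none rose, where 1.32% of all genes fell. The falls were led by the lipase relatives Pnliprp1 (-2.21) and Pnliprp2 (-1.80). The colipase gene Clps had 12.51 and 12.58 in the combination arrays, against 13.55, 13.53 and 13.61 in the rapamycin arrays.

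Among called genes were 3 microRNA genes, named after their values were seen. Mir340 changed by 0.83, Mir19a by 0.78 and Mir32 by 0.69. The arrays measure the gene's transcript with the probe set assigned to it and do not separate the mature arms. The mature sequences with annotated arms shown here (RefSeq, GRCm38.p6) carry the seed, bases 2 to 8, in capitals, and no seed is shared.
miR-340-5p: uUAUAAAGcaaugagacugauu
miR-19a-3p: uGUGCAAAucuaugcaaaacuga
miR-32-5p: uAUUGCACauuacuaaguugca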
